A study of Mus musculus with 56 samples.

Results

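The type I interferon response genes are transcripts that cells switch on after sensing viral nucleic acid or receiving a type I interferon signal. Here 39 such genes were taken by name from a table of 14870 genes measured by RNA sequencing of whole tibialis anterior, the muscle along the shin. All 39 had a row, and 38 passed the filter on low values. The titin mechanical knock-out (mKO) mouse carries, in the sarcomeric spring protein titin, a recognition site for the TEV protease of a plant virus, so that supplying the protease cuts titin. Muscles of wild-type (WT), heterozygous (HET mKO) and homozygous (HOMO mKO) mice received saline or an adeno-associated virus (AAV) vector encoding green fluorescent protein fused to the TEV protease. They were dissected 3, 7 or 21 days after injection (dpi), with heterozygous muscle at 7 dpi only, which gave 56 samples in 14 groups of 3 to 5. Wild-type AAV muscle received vector and protease without the cleavage site, and every AAV group of the other genotypes received vector, protease and site together. The promoter driving the transgene and the strain, age and sex of the mice are not given in the sources used here. Whether each sample is a different mouse is not stated, so p-values measure only the spread between these samples, which may be technical.

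Type I interferons bind a receptor of IFNAR1 and IFNAR2 on the cell surface. The kinases JAK1 and TYK2 then activate transcription factors, among them STAT2, which joins IRF9 in a complex that binds a promoter element called ISRE. The induced genes encode further sensors of viral RNA and DNA, proteins that block viral replication, the ubiquitin-like modifier ISG15 with its enzymes, and inhibitors that switch the pathway off again. Many of them also answer interferon gamma, the product of T cells and natural killer cells, which acts through an element called GAS.

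The files hold normalised read counts. Each value is a number of reads plus 0.5, divided by the effective library size and put on a per-million scale, so a library with 0 reads stands slightly above 0. Recovered depth was 6.9 M to 27.15 M reads per library, with a median of 21.69 M. Homozygous AAV replicate 2 at 7 dpi was the shallowest library and the next lowest held 14.98 M. Transgene reads numbered 0 to 6 in saline libraries and 56 to 34407 in AAV libraries, so no library went against its injection label. The 8 muscle fibre markers were abundant in every group, with summed group means from 75888 to 147112. Changes below are log2 differences of (value + 1) ± standard error (SE) from limma, with p-values adjusted over the 13017 genes tested, and a gene was called at an adjusted p under 0.05. This scale understates changes of genes with low counts. The filter averaged over all libraries, so some members that were low in saline muscle, such as Zbp1 and Mx1, passed it only through AAV libraries.

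Promoter sequence illustrates the elements through which these genes are read. RefSeq windows of 250 bases before a transcription start (GRCm38.p6) were matched by symbol for 29 of the 39 genes. The letters GAAA, any 2 bases and again GAAA, the ISRE core, on either strand, were found in 9 of these 29 genes (31.0%) and in 936 of all 27025 genes with a window (3.46%). The 9 were Bst2, Ifit1, Ifit3, Isg15, Oas1a, Oas3, Rsad2, Socs1 and Stat2. The letters TTCNNNGAA, the GAS core, were found in 7 of the 29 (24.1%) and in 2197 of the 27025 genes (8.13%). Those 7 were Bst2, Eif2ak2, Ifit2, Irf1, Irf8, Oas1a and Samhd1, so Bst2 and Oas1a held both. A match describes letters and not a bound site. Windows of 4 genes are shown 5′ to 3′ on the gene's strand, with matches in capitals: Isg15 and Ifit3 as ISRE-bearing effectors of the canonical response, Socs1 and Irf1 as genes whose response in homozygous muscle grew most between 7 and 21 dpi after Zbp1.
Isg15, chr4:156200819-156201068, minus strand, ISRE letters beginning 78, 72 and 66 bases before the start: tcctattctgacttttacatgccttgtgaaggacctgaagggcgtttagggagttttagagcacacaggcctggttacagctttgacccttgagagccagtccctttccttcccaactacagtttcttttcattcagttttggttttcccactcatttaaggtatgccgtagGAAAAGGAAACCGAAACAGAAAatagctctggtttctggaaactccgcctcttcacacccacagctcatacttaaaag
Ifit3, chr19:34583279-34583528, plus strand, ISRE letters beginning 156 and 122 bases before the start: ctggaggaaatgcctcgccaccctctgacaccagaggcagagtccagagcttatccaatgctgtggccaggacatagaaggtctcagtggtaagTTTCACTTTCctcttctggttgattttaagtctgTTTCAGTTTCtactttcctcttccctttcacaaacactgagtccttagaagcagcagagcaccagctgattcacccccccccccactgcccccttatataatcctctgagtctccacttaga
Socs1, chr16:10785537-10785786, minus strand, ISRE letters beginning 83 and 77 bases before the start: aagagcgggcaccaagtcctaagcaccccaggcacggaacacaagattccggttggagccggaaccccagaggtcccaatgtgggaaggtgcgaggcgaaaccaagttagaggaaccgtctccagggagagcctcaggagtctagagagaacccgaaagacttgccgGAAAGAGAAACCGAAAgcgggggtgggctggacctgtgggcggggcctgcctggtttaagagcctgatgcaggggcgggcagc
Irf1, chr11:53769764-53770013, plus strand, GAS letters beginning 90 bases before the start: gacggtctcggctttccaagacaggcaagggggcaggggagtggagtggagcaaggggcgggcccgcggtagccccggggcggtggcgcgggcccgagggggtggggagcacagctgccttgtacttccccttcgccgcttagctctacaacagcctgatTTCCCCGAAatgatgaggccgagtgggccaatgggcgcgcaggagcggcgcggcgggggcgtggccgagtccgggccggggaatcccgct
In Isg15 and Socs1 the ISRE matches overlap one another and form a single purine-rich run, whereas the pair in Ifit3 lies apart. Irf1 has a second RefSeq window with no match to either motif.

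Several libraries were the highest or lowest of their group in the summed level of the 39 genes, although Dixon's criterion for an outlying sample was met by 0 of the summed levels. Homozygous saline replicate 4 at 7 dpi held 450.2, against 219 to 264 in the other 3, and was the highest of its group in 31 of the 39 genes. Wild-type AAV replicate 1 at 7 dpi reached 377, against 243 to 304.0, and was the highest in 31 genes. Homozygous AAV replicate 2 at 3 dpi reached 639, against 299 to 382, and was the highest in 37 genes. At 21 dpi homozygous AAV replicate 4 was the lowest of its group in 39 of 39 genes (sum 499, against 1118 to 1795), and wild-type AAV replicate 2 was likewise the lowest in 39 of 39 (456, against 776 to 1193). Not every group had such a library: in homozygous saline muscle at 21 dpi, for example, the 4 libraries were highest in 16, 8, 9 and 6 genes.

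In saline-injected muscle the interferon response genes showed no difference between genotypes that limma called over all groups, and their basal levels per gene length spanned a wide range. Per kilobase of exon, the highest mean over the 26 saline libraries was that of Ifitm3, a membrane protein that blocks virus entry (33.6 normalised counts per kilobase). Ifi27 followed at 10.5 and the virus-tethering protein gene Bst2 at 7.43. The lowest levels were those of Oas3 at 0.0236, Mx1 at 0.0813 and Zbp1 at 0.110 per kilobase. In homozygous AAV muscle at 21 dpi the highest levels per kilobase were 125.7 for Ifitm3, 40.2 for Ifi30 and 35.0 for Bst2, and Zbp1 stood at 7.64. Comparisons of homozygous with wild-type saline muscle called 0 of 38 members at 3, 7 and 21 dpi, where 2.28%, 2.08% and 3.32% of all genes were called. At an unadjusted p under 0.05 these counts were 0, 1 (Socs1) and 3 (Parp9, Dtx3l and Ifi35), edgeR called 0 at each day, and DESeq2 called 0, 1 and 0. A limma fit of only the groups compared called 3 members higher in homozygous saline muscle at 21 dpi. Heterozygous against wild-type saline muscle at 7 dpi also gave 0 members by limma, edgeR and DESeq2, and 0 at an unadjusted p under 0.05 (0.2% of all genes were called).

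The summed level of the 39 genes gives the size of the response in linear units. Members with high counts, such as Samhd1 and Ifitm3, weigh most in it, and members with low counts, such as Mx1 and Oas3, weigh little. In whole muscle, more cells of a type and more RNA per cell cannot be told apart. Wild-type saline muscle held 275 ± 41.3 (SD, n = 3), 265.8 ± 20.9 (n = 3) and 250.6 ± 12.2 (n = 4) normalised counts at 3, 7 and 21 dpi. Wild-type AAV muscle held 287 ± 38.6 (n = 5), 295 ± 61.3 (n = 4) and 843 ± 309.9 (n = 4) in turn. Homozygous AAV muscle held 417.8 ± 151.5 (n = 4), 524.9 ± 112.7 (n = 5) and 1150.0 ± 529.9 (n = 4), against 271 ± 19.9, 299 ± 103 and 257 ± 13.5 (n = 4 each) after saline. The AAV mean was thus 1.54, 1.75 and 4.48 times the saline mean in homozygous muscle and 1.04, 1.11 and 3.37 times in wild-type muscle. Heterozygous AAV muscle at 7 dpi held 323 ± 55.4 against 254 ± 27.7 after saline (n = 4 each), a ratio of 1.27.

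**Figure D1:**
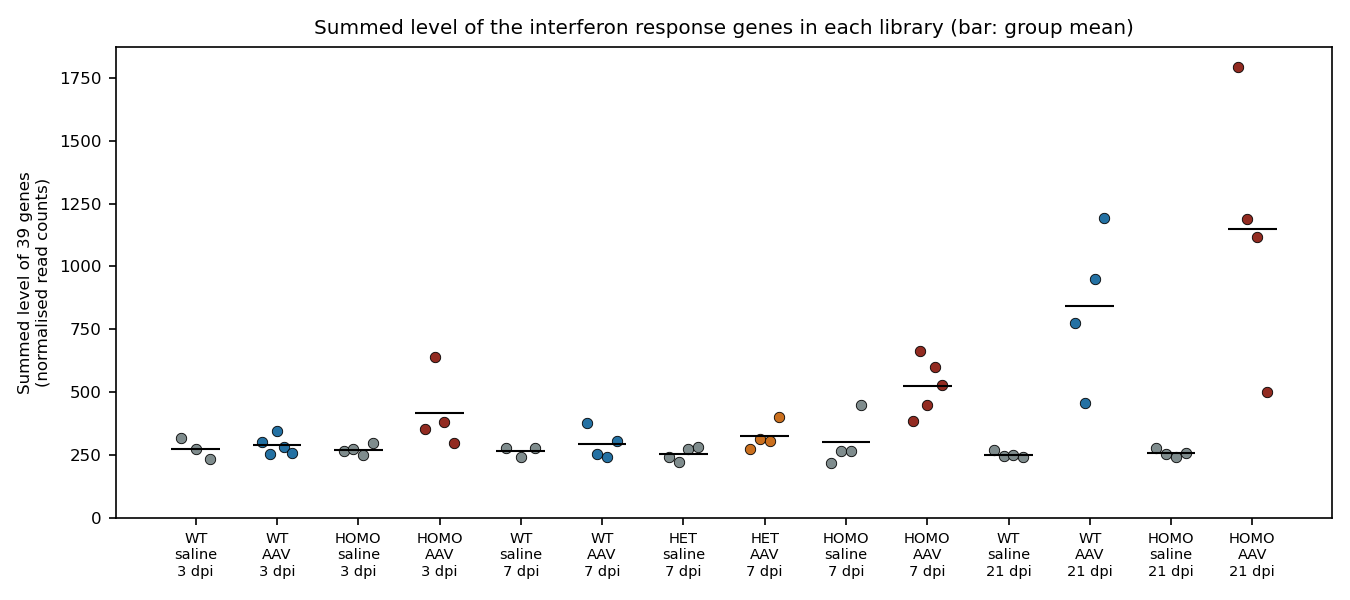
Summed level of the 39 interferon response genes (y axis, normalised read counts) in each of the 56 libraries, ordered by day, genotype and injection; points are libraries and bars are group means. Wild-type AAV libraries span 252 to 347 at 3 dpi and 243 to 377 at 7 dpi, overlapping wild-type saline libraries (235 to 317 and 242 to 278). All AAV libraries at 21 dpi lie above 450.2, the highest saline value, that of homozygous replicate 4 at 7 dpi.

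Wild-type muscle gave no interferon response to AAV that passed the test at 3 or 7 dpi. Of 38 members 0 were called at 3 dpi and 0 at 7 dpi, with median log2 changes of 0.07 and 0.10, and 0% of all genes were called on either day. The counts were also 0 at an unadjusted p under 0.05 and by edgeR and DESeq2. In no member did every AAV library lie above every saline library, an arrangement that 1.87% of all genes showed at each of these days. Isg15 stood at 1.42, 1.00 and 1.47 in wild-type saline muscle and 2.78, 1.60, 0.686 and 0.612 in AAV muscle at 7 dpi, so the groups overlapped.

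At 21 dpi wild-type AAV muscle showed a broad response: 37 of 38 members rose, 0 fell and Trim25 did not pass, beside 19.7% of all genes that rose and 21.3% that fell. The median change was 1.57, and -0.01 over all genes. In 33 members every AAV library lay above every saline library, against 16.4% of all genes. Homozygous AAV muscle had 12 members called higher at 3 dpi, 27 at 7 dpi and 38 at 21 dpi, and 0 lower on any day. The shares of all genes called higher there were 17.4%, 20.6% and 29.7%, and the shares called lower 17.2%, 22.5% and 29.6%. The medians of the 38 members were 0.46, 0.79 and 1.78, beside medians over all genes of -0.01, -0.01 and -1e-04. Members without overlap between AAV and saline libraries numbered 14, 11 and 34, against 14.3%, 16.6% and 21.5% of all genes. Without homozygous AAV replicate 2 the count at 3 dpi was 4 in place of 12. Without homozygous saline replicate 4, the high library described above, the count at 7 dpi was 33, and without that library and the shallow AAV replicate 2 together it was 31. In heterozygous muscle at 7 dpi 6 of 38 members rose, Dhx58, Ifitm3, Parp9, Ifi35, Ifi27 and Ifi30, beside 19.6% of all genes called higher and 20.8% called lower, so the members' share was close to that of the table. In 11 members all AAV libraries lay above all saline libraries, against 20.5% of all genes. Across the alternatives run, Ifitm3 lost its heterozygous call in 11 and kept it in 7, and Dhx58 lost it in 6 and kept it in 11. The heterozygous median was 0.32, the count fell to 3 without heterozygous AAV replicate 4, and a fit of only these 2 groups gave 14.

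**Figure D2:**
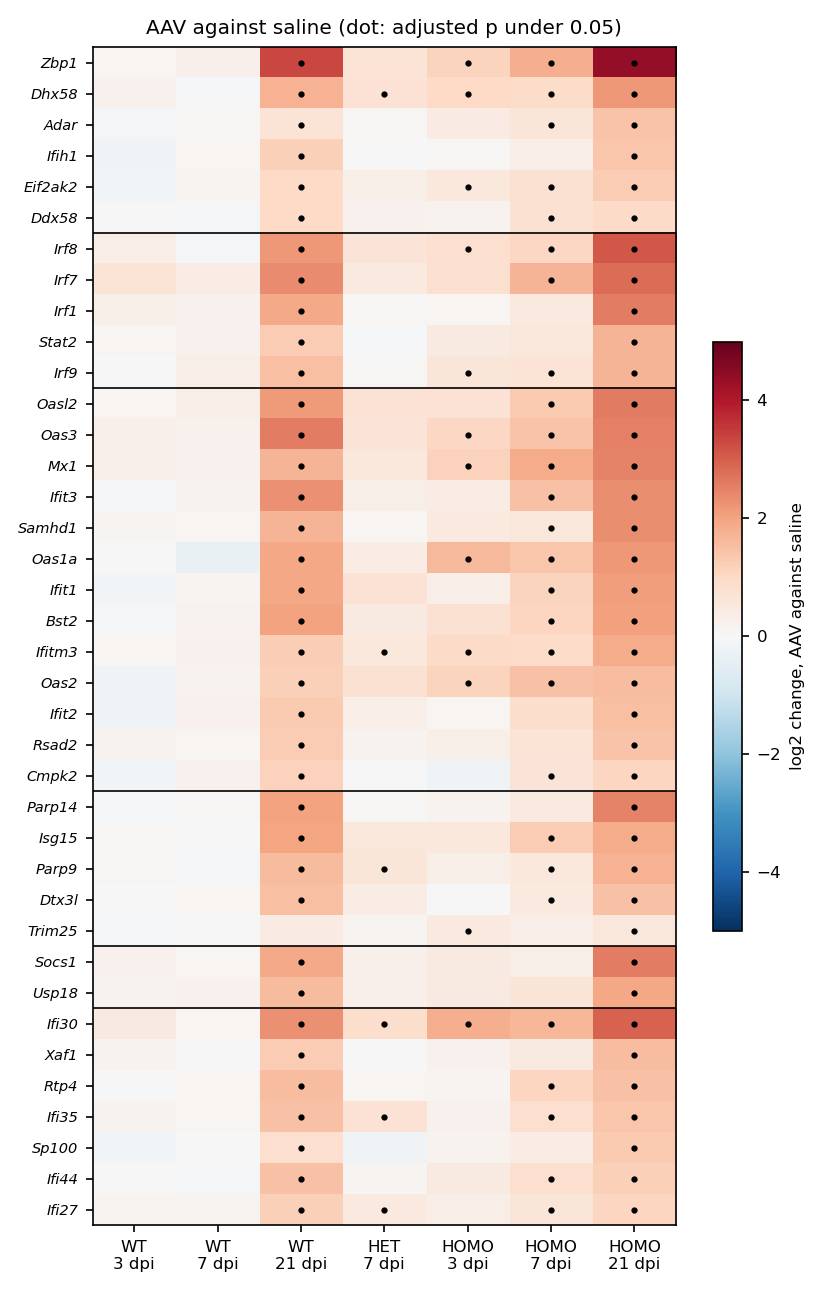
Log2 change, AAV against saline, of the 38 tested genes (rows, grouped from top to bottom as sensors, transcription factors, antiviral effectors, ISG15 and ADP-ribosylation genes, inhibitors and other induced genes) in 7 comparisons (columns); red is higher after AAV and a dot marks an adjusted p under 0.05. The columns of wild-type muscle at 3 and 7 dpi hold 0 dots, those at 21 dpi hold 37 in wild-type and 38 in homozygous muscle.

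The sensors recognise foreign or misplaced nucleic acid. All 6 rose at 21 dpi in both genotypes, with medians of 1.08 in wild-type and 1.40 in homozygous muscle. In homozygous muscle 5 of 6 had risen at 7 dpi and 3 at 3 dpi, and in heterozygous muscle 1 of 6 at 7 dpi. Of all genes, 19.7% in wild-type and 29.7% in homozygous muscle were called higher at 21 dpi. The shares were 20.6% and 17.4% in homozygous muscle at 7 and 3 dpi. In heterozygous muscle the share was 19.6%, so 1 of 6 was near that of the table. Zbp1 (ENSMUSG00000027514, chromosome 2, 173206612 to 173218923), which binds left-handed double-stranded nucleic acid and can start necroptosis, changed more at 21 dpi than any other member, in both genotypes. Its level was 0.311, 0.0208, 0.0623 and 0.0654 in homozygous saline libraries and 50.3, 23.6, 26.3 and 7.68 in AAV libraries at 21 dpi, so the lowest AAV library lay far above all saline libraries. The change was 4.40 ± 0.38 (adjusted p = 4.72e-13) there and 3.35 ± 0.38 (adjusted p = 3.03e-09) in wild-type muscle, where AAV libraries stood at 10.8, 3.60, 18.3 and 26.7 and saline libraries at 0.597, 0.0278, 0.242 and 0.306. Zbp1 had already risen by 1.12 ± 0.38 (adjusted p = 0.0192) at 3 dpi and 1.82 ± 0.36 (adjusted p = 7.78e-05) at 7 dpi in homozygous muscle. At 7 dpi the AAV libraries read 1.82, 6.51, 4.29, 6.61 and 5.34 and the saline libraries 0.0624, 0.0713, 0.793 and 2.06, with overlap between the lowest AAV and the highest saline library.

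Dhx58 (ENSMUSG00000017830, chromosome 11, 100694884 to 100704271) encodes LGP2, a helicase that tunes the cytosolic RNA sensors. Its homozygous levels at 21 dpi were 0.990, 0.436, 0.394 and 0.545 after saline and 18.2, 5.46, 4.79 and 2.40 after AAV, a change of 2.16 ± 0.29 (adjusted p = 2.21e-08). It was also the one sensor called in heterozygous muscle, at 0.72 ± 0.29 (adjusted p = 0.044), with 0.408, 0.550, 1.02 and 1.08 after saline and 1.25, 1.88, 1.43 and 3.31 after AAV and no overlap. Ddx58 (ENSMUSG00000040296, chromosome 4, 40203773 to 40239828), which encodes the RNA sensor RIG-I, had the largest p of the class at 21 dpi. It stood at 7.95, 7.58, 6.66 and 8.22 in homozygous saline libraries and 29.0, 12.7, 13.9 and 12.0 in AAV libraries, with a change of 0.97 ± 0.22 (adjusted p = 0.000204) and 0.99 ± 0.22 (adjusted p = 0.000344) in wild-type muscle. All homozygous AAV libraries lay above saline and replicate 1 was the highest. Ifih1, the sensor MDA5 of long double-stranded RNA, was not called in homozygous muscle at 7 dpi (0.32 ± 0.20, adjusted p = 0.209) and rose by 1.38 ± 0.22 (adjusted p = 4.15e-07) at 21 dpi. Eif2ak2, the kinase PKR that stops translation, rose on all 3 days there, by 0.54 ± 0.20, 0.75 ± 0.18 and 1.27 ± 0.20. Adar, which edits double-stranded RNA, rose at 7 and 21 dpi by 0.61 ± 0.21 and 1.42 ± 0.22.

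The 5 transcription factors of the list all rose at 21 dpi in both genotypes, beside 19.7% of all genes in wild-type and 29.7% in homozygous muscle. Their median was the highest of the classes in homozygous muscle (2.57, and 1.90 in wild-type muscle). Irf8 (ENSMUSG00000041515, chromosome 8, 120736358 to 120756694), a factor of macrophage and dendritic cell development, had the largest change of them in homozygous muscle. Its homozygous levels were 4.38, 3.30, 3.55 and 2.68 after saline and 71.0, 36.4, 42.0 and 16.9 after AAV at 21 dpi, a change of 3.10 ± 0.27 (adjusted p = 5.72e-13). In wild-type muscle it went from 3.84, 4.59, 5.46 and 3.98 to 15.8, 13.2, 31.7 and 42.5, a change of 2.15 ± 0.27 (adjusted p = 2.72e-08). At 7 dpi homozygous AAV libraries held 9.26, 14.3, 7.03, 10.3 and 12.9 and saline libraries 3.76, 4.49, 3.92 and 6.58, with no overlap (1.04 ± 0.26, adjusted p = 0.00111).

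Irf9 (ENSMUSG00000002325, chromosome 14, 55603571 to 55610030), the DNA-binding partner of STAT2, was called on all 3 days in homozygous muscle, at 0.61 ± 0.18, 0.70 ± 0.17 and 1.70 ± 0.18. At 21 dpi its levels were 7.55, 7.38, 7.33 and 7.17 after saline and 36.1, 31.8, 27.8 and 14.7 after AAV, and saline libraries lay within a narrow band. Stat2 (ENSMUSG00000040033, chromosome 10, 128270559 to 128292849) stood at 8.06, 9.16, 10.2 and 9.48 in the same saline libraries and 56.9, 38.9, 31.0 and 15.7 in the AAV libraries, and it rose by 1.71 ± 0.29 (adjusted p = 1.94e-06). Unlike Irf9 it was not called at 7 dpi (0.56 ± 0.27, adjusted p = 0.0911), where saline replicate 4 read 22.8 and exceeded all 5 AAV libraries. Irf7, the factor that amplifies interferon alpha production, rose by 1.70 ± 0.40 (adjusted p = 0.000519) at 7 dpi and 2.79 ± 0.42 (adjusted p = 1.73e-07) at 21 dpi in homozygous muscle. Irf1, which answers interferon gamma strongly, was not called at 7 dpi (0.48 ± 0.26, adjusted p = 0.134) and rose by 2.57 ± 0.27 (adjusted p = 7.26e-11) at 21 dpi, from 12.2, 12.9, 9.77 and 10.1 to 103, 101, 84.0 and 29.7. The window with the GAS letters shown above belongs to this gene.

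Antiviral effectors formed the largest class, with 14 genes of which 13 were tested. All 13 rose at 21 dpi in both genotypes, 11 rose in homozygous muscle at 7 dpi, 5 at 3 dpi and 1 in heterozygous muscle at 7 dpi. Of all genes, 19.7% in wild-type and 29.7% in homozygous muscle rose at 21 dpi. The shares were 20.6% and 17.4% in homozygous muscle at 7 and 3 dpi and 19.6% in heterozygous muscle. Mx1 (ENSMUSG00000000386, chromosome 16, 97447035 to 97462907), a dynamin-like GTPase that traps viral particles, separated AAV from saline libraries on all 3 days in homozygous muscle. It stood at 0.367, 0.312, 0.560 and 0.0654 in homozygous saline libraries and 20.2, 5.56, 5.59 and 2.30 in AAV libraries at 21 dpi (2.50 ± 0.33, adjusted p = 1.17e-08). At 7 dpi it stood at 0.229, 0.499, 0.333 and 0.178 after saline and 3.94, 6.63, 2.94, 4.50 and 2.06 after AAV, again without overlap (1.87 ± 0.31, adjusted p = 5.02e-06). At 3 dpi it stood at 0.237, 0.194, 0.452 and 0.296 after saline and 0.999, 5.78, 2.17 and 0.537 after AAV, and replicate 2 was highest. Wild-type levels at 21 dpi were 0.740, 0.139, 0.242 and 0.353 after saline and 3.16, 1.87, 4.86 and 4.05 after AAV (1.68 ± 0.33, adjusted p = 6.42e-05). Mx2, its neighbour on chromosome 16, was under the filter and not tested. Its values were 0.311, 0.894, 0.353 and 0.632 after saline and 3.85, 2.17, 1.30 and 0.711 after AAV in homozygous muscle at 21 dpi.

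**Figure D3:**
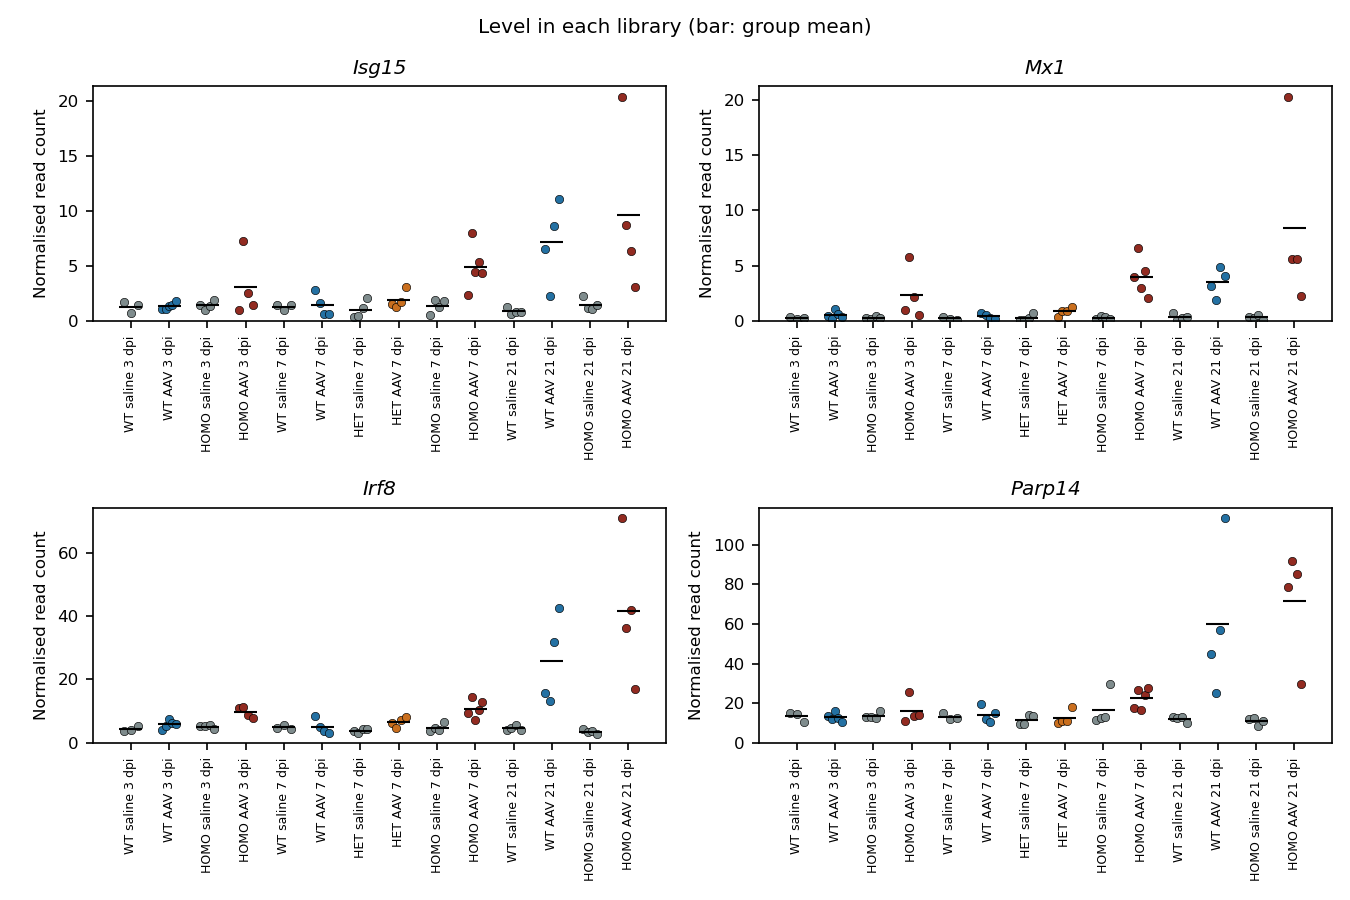
Level (y axis, normalised read count) of Isg15, Mx1, Irf8 and Parp14 in each library of the 14 groups; points are libraries and bars are group means. Mx1 is above saline in all 5 homozygous AAV libraries at 7 dpi (2.06 to 6.63), whereas Parp14 there (16.7 to 27.8) overlaps the saline libraries (11.5 to 29.4) and separates at 21 dpi.

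Samhd1 (ENSMUSG00000027639, chromosome 2, 157097533 to 157135265) encodes a phosphohydrolase that depletes the nucleotides a virus needs for DNA synthesis. It stood at 25.9, 26.8, 22.5 and 24.1 in homozygous saline libraries and 228, 139, 155 and 55.1 in AAV libraries at 21 dpi (2.33 ± 0.24, adjusted p = 3.27e-11). Wild-type AAV libraries at 21 dpi held 77.0, 53.8, 112 and 127 and saline libraries 28.4, 25.3, 24.4 and 26.3 (1.71 ± 0.24, adjusted p = 2.28e-07), with no overlap. Ifitm3 (ENSMUSG00000025492, chromosome 7, 141009586 to 141010770) rose on every day in homozygous muscle, by 0.96 ± 0.21, 0.91 ± 0.20 and 1.84 ± 0.21. At 3 dpi it stood at 23.9, 28.6, 19.1 and 26.4 after saline and 51.6, 71.3, 47.0 and 30.5 after AAV, with all AAV libraries above. At 21 dpi AAV libraries held 106, 96.6, 98.7 and 38.99, and replicate 4 was well under the other 3.

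The Ifit genes encode proteins that bind viral RNA ends. Ifit2 (ENSMUSG00000045932, chromosome 19, 34550694 to 34576419) had the largest p of the class at 21 dpi, at 7.10, 5.42, 4.17 and 5.51 after saline and 46.7, 18.1, 14.8 and 6.73 after AAV in homozygous muscle (1.50 ± 0.40, adjusted p = 0.00126). AAV replicate 4 overlapped the saline libraries. Ifit3, whose paired ISRE letters are shown above, rose by 1.48 ± 0.39 (adjusted p = 0.00218) at 7 dpi and 2.33 ± 0.41 (adjusted p = 5.06e-06) at 21 dpi. Ifit1 rose by 1.11 ± 0.33 (adjusted p = 0.00622) and 2.09 ± 0.35 (adjusted p = 1.77e-06) on these days. The Oas genes make the messenger that activates RNase L. Oas1a rose at 3, 7 and 21 dpi by 1.60 ± 0.40, 1.39 ± 0.38 and 2.16 ± 0.40, and Oas2 by 1.10 ± 0.35, 1.45 ± 0.33 and 1.56 ± 0.35. Oas3 and Oasl2 rose at 21 dpi by 2.53 ± 0.42 and 2.60 ± 0.39. Oas1a and the Ifit genes have close copies in the mouse genome, among which the authors' counting divided reads by estimation, so their single values are uncertain. Rsad2 encodes viperin, which makes a chain-terminating nucleotide, and its neighbour Cmpk2 a nucleotide kinase. At 7 dpi Cmpk2 was called and Rsad2 was not, at 0.66 ± 0.24 (adjusted p = 0.0227) and 0.68 ± 0.31 (adjusted p = 0.0759), and both were called at 21 dpi. Bst2, with both motifs in its window, rose by 1.08 ± 0.30 (adjusted p = 0.0033) at 7 dpi and 2.03 ± 0.32 (adjusted p = 4.71e-07) at 21 dpi.

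ISG15 is a ubiquitin-like protein that is attached to other proteins, and the genes grouped with it include ubiquitin ligases and ADP-ribosyltransferases. Of these 5, 4 rose in wild-type and 5 in homozygous muscle at 21 dpi, 3 in homozygous muscle at 7 dpi, 1 at 3 dpi and 1 in heterozygous muscle. Of all genes, 19.7% in wild-type and 29.7% in homozygous muscle rose at 21 dpi, and 20.6% in homozygous muscle at 7 dpi. The shares were 17.4% in homozygous muscle at 3 dpi and 19.6% in heterozygous muscle, so 1 of 5 was near that of the table. Isg15 itself (ENSMUSG00000035692, chromosome 4, 156199424 to 156200818) stood at 2.29, 1.18, 1.06 and 1.42 after saline and 20.4, 8.70, 6.39 and 3.09 after AAV in homozygous muscle at 21 dpi. The wild-type levels were 1.31, 0.640, 0.833 and 0.825 after saline and 6.58, 2.27, 8.62 and 11.1 after AAV. AAV libraries lay above saline in both genotypes, and the changes of 1.86 ± 0.37 (adjusted p = 2.45e-05) and 1.96 ± 0.37 (adjusted p = 3.23e-05) differed by -0.09 (95% interval -1.13 to 0.94). At 7 dpi homozygous libraries held 0.520, 1.88, 1.30 and 1.85 after saline and 2.35, 7.96, 4.42, 5.33 and 4.36 after AAV (1.27 ± 0.35, adjusted p = 0.00266). At 3 dpi they held 1.45, 1.01, 1.40 and 1.91 after saline and 1.04, 7.30, 2.54 and 1.49 after AAV, where replicate 2 was high, the groups overlapped and the change was not called (0.53 ± 0.37, adjusted p = 0.271).

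Parp14 (ENSMUSG00000034422, chromosome 16, 35832874 to 35871544), a mono-ADP-ribosyltransferase, was at 11.7, 12.4, 8.61 and 10.8 after saline and 78.6, 91.8, 85.5 and 29.6 after AAV in homozygous muscle at 21 dpi (2.49 ± 0.30, adjusted p = 1.05e-09). Wild-type AAV libraries held 45.0, 24.9, 56.8 and 114 (2.02 ± 0.30, adjusted p = 5.34e-07), with replicate 4 above all homozygous libraries. Parp9 (ENSMUSG00000022906, chromosome 16, 35938470 to 35972605), which works as a pair with the ligase Dtx3l, went from 10.8, 10.7, 10.9 and 10.4 to 48.4, 46.2, 44.0 and 20.3 there (1.72 ± 0.20, adjusted p = 4.82e-10). Parp9 was also called in heterozygous muscle at 7 dpi (0.60 ± 0.20, adjusted p = 0.0125), at 8.63, 7.31, 8.94 and 9.14 after saline and 12.3, 13.2, 11.8 and 16.7 after AAV. Dtx3l rose by 1.45 ± 0.20 (adjusted p = 4.9e-08) in homozygous muscle at 21 dpi. Parp9 and Dtx3l overlap on opposite strands and whether counting used strand is not stated in the sources used here, so their reads may be partly shared. Trim25 (ENSMUSG00000000275, chromosome 11, 88999376 to 89020293), the ligase that activates RIG-I, had the smallest change of all members at 21 dpi. It was at 20.6, 15.0, 18.2 and 18.1 after saline and 51.5, 25.0, 23.3 and 17.0 after AAV, with overlap, at 0.56 ± 0.17 (adjusted p = 0.0051) in homozygous and 0.41 ± 0.17 (adjusted p = 0.0544) in wild-type muscle.

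The list holds 2 inhibitors of the pathway. Socs1 (ENSMUSG00000038037, chromosome 16, 10782240 to 10785536) blocks the Janus kinases, and Usp18 (ENSMUSG00000030107, chromosome 6, 121245906 to 121270917) removes ISG15 and shuts the receptor. Both rose at 21 dpi in both genotypes, beside 19.7% of all genes in wild-type and 29.7% in homozygous muscle. Both were called in no comparison of AAV with saline at 3 or 7 dpi. Socs1 stood at 0.311, 0.561, 0.809 and 0.370 after saline and 9.05, 11.7, 9.09 and 3.72 after AAV in homozygous muscle at 21 dpi (2.56 ± 0.29, adjusted p = 3.56e-10), and every AAV library lay above every saline library. At 7 dpi it stood at 1.14, 0.879, 2.89 and 0.737 after saline and 1.164, 3.10, 1.07, 3.88 and 0.887 after AAV, with overlap (0.29 ± 0.28, adjusted p = 0.413). Usp18 stood at 2.91, 1.85, 1.56 and 1.90 after saline and 12.7, 14.9, 10.7 and 5.54 after AAV at 21 dpi (1.92 ± 0.29, adjusted p = 2.55e-07) and at 1.89, 2.83, 1.46 and 3.02 after saline and 2.14, 6.02, 3.77, 4.72 and 4.28 after AAV at 7 dpi (0.63 ± 0.28, adjusted p = 0.0588).

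Among the 7 other induced genes, Ifi30 (ENSMUSG00000031838, chromosome 8, 70762774 to 70766663), a lysosomal thiol reductase of antigen processing, was called in homozygous muscle on all 3 days and in heterozygous muscle. Its homozygous levels at 3 dpi were 4.72, 3.51, 6.26 and 5.78 after saline and 24.5, 25.4, 25.9 and 10.01 after AAV, without overlap (1.82 ± 0.28, adjusted p = 2.17e-06). At 7 dpi they were 3.68, 3.73, 4.33 and 3.99 after saline and 12.2, 19.9, 9.86, 17.0 and 15.3 after AAV (1.65 ± 0.26, adjusted p = 2.49e-06), and at 21 dpi 3.19, 3.76, 4.83 and 2.55 after saline and 75.5, 25.2, 40.8 and 16.1 after AAV (2.94 ± 0.28, adjusted p = 3.41e-12). Heterozygous libraries at 7 dpi held 5.20, 5.48, 5.93 and 5.09 after saline and 7.37, 12.3, 11.4 and 13.0 after AAV, again without overlap (0.88 ± 0.28, adjusted p = 0.00982). Ifi27 (ENSMUSG00000064215, chromosome 12, 103434211 to 103440239), a small mitochondrial membrane protein, changed less, from 17.8, 14.5, 15.4 and 16.0 to 42.2, 38.1, 33.0 and 25.4 in homozygous muscle at 21 dpi (1.05 ± 0.15, adjusted p = 3.41e-08), with saline libraries close together. Ifi44 (ENSMUSG00000028037, chromosome 3, 151730922 to 151749960) had the largest p of its class there, at 2.46, 2.39, 1.06 and 3.12 after saline and 12.7, 5.95, 5.40 and 3.59 after AAV (1.20 ± 0.34, adjusted p = 0.00253). Ifi35, Rtp4, Xaf1 and the nuclear body gene Sp100 rose at 21 dpi in homozygous muscle by 1.37 ± 0.21, 1.48 ± 0.34, 1.54 ± 0.29 and 1.30 ± 0.24. At 7 dpi Xaf1 and Sp100 were not called (0.44 ± 0.27, adjusted p = 0.184, and 0.36 ± 0.22, adjusted p = 0.191).

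The response of homozygous muscle was then compared between days. From 3 to 7 dpi it differed in 0 of 38 members (5.96% of all genes were called), with 2 members, Cmpk2 and Ifi35, at an unadjusted p under 0.05 and 0 by edgeR and DESeq2. From 7 to 21 dpi it grew in 16 of 38 members and shrank in 0, beside 7.54% of all genes called higher and 6.27% called lower. These were Zbp1, Dhx58, Ifih1, Irf8, Irf1, Stat2, Irf9, Samhd1, Ifitm3, Parp14, Parp9, Dtx3l, Socs1, Usp18, Ifi30 and Sp100. Socs1 grew by 2.27 ± 0.40 (adjusted p = 0.000107), Irf1 by 2.10 ± 0.38 (adjusted p = 0.00014), Parp14 by 2.00 ± 0.41 (adjusted p = 0.000687) and Samhd1 by 1.76 ± 0.33 (adjusted p = 0.000247). High single saline libraries lowered some of the changes at 7 dpi. Homozygous saline replicate 4 stood above all AAV libraries of that day for Irf1 (26.8) and Parp14 (29.45). For Samhd1 the same library read 53.9, against 37.6 to 59.0 after AAV. Socs1 read 0.737 to 2.89 in homozygous saline libraries at 7 dpi and 0.311 to 0.809 at 21 dpi, so its saline level also differed between days. Among the members not called, Oas2 and Ddx58 had the smallest differences. Oas2 stood at 0.11 (95% interval -0.87 to 1.08), Ddx58 at 0.21 (95% interval -0.40 to 0.82), Isg15 at 0.59 (95% interval -0.42 to 1.60) and Mx1 at 0.62 (95% interval -0.29 to 1.53). By class, 4 of 5 transcription factors, 2 of 2 inhibitors, 3 of 5 ISG15 and ADP-ribosylation genes, 3 of 6 sensors, 2 of 7 other genes and 2 of 13 effectors were called. The count was 9 without homozygous AAV replicate 1 at 21 dpi, 25 without replicate 4, and 8 in a fit of only the groups compared. Of the 11 called genes with a promoter window, 2 held the ISRE letters and 3 the GAS letters. Of the 18 not called, 7 and 4 did. These counts are small and the called set varied between alternatives, so they cannot separate the called genes from the others by motif. No difference in motifs was tested.

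**Figure D4:**
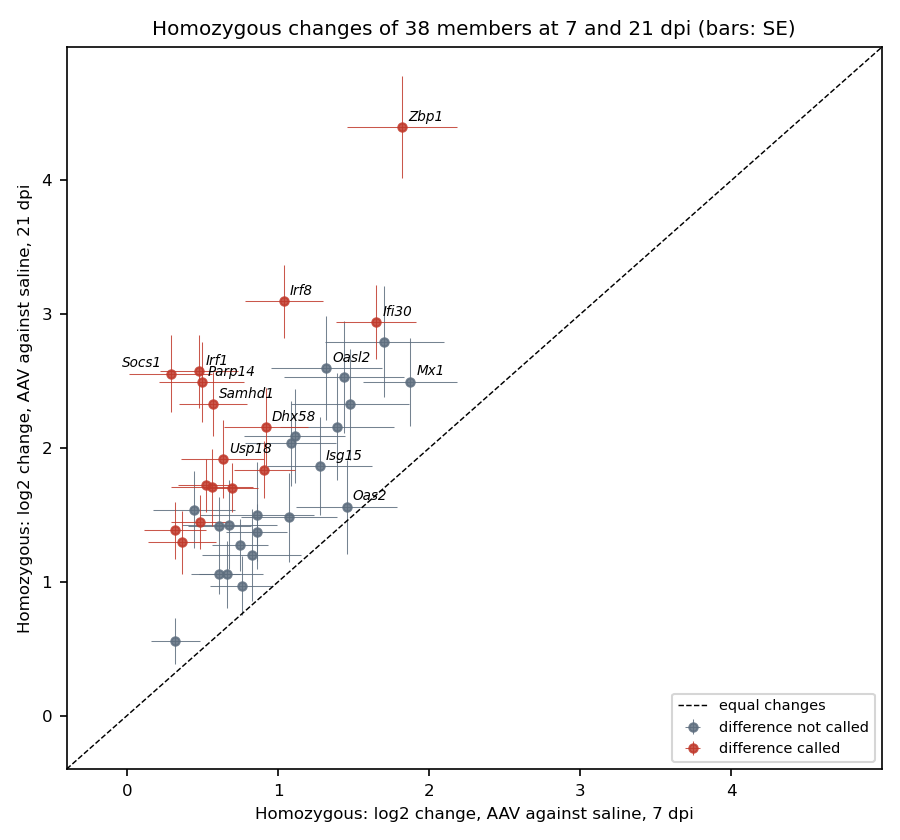
Log2 change, AAV against saline, of the 38 genes in homozygous muscle at 7 dpi (x axis) and 21 dpi (y axis), with SE bars; the dashed line marks equal changes and red marks the 16 genes whose difference between days was called. Socs1, Irf1 and Parp14 lie between 0.29 and 0.50 at 7 dpi and between 2.49 and 2.57 at 21 dpi, while Oas2 lies beside the line. For Irf1 and Parp14, saline replicate 4 at 7 dpi was above all AAV libraries of that day. For Socs1, saline libraries read 0.737 to 2.89 at 7 dpi and 0.311 to 0.809 at 21 dpi.

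In wild-type muscle the response grew from 7 to 21 dpi in 30 of 38 members, beside 10.5% of all genes called higher and 8.63% called lower, with a median difference of 1.47. Zbp1 grew by 3.09 ± 0.56 (adjusted p = 0.000183), Oas3 by 2.35 ± 0.61 (adjusted p = 0.00595) and Ifi30 by 2.21 ± 0.41 (adjusted p = 0.000209). Without wild-type AAV replicate 4 at 21 dpi the count was 18.

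Differences between genotypes were tested as differences of the AAV response. At 3 dpi the homozygous response exceeded the wild-type response in 1 of 38 members, Ifi30, by 1.37 ± 0.40 (adjusted p = 0.0233), beside 5.39% of all genes called higher and 4.36% called lower. Leaving out 1 library gave counts of 0 to 4, and 7 of the libraries moved the count. Transgene levels at 3 dpi were 31.2 to 80.6 in homozygous and 3.31 to 48.4 in wild-type AAV libraries, and their part was not tested. At 7 dpi it was larger in 5 members and smaller in 0, beside 9.29% of all genes called higher and 10.9% called lower. The 5 were Oas1a at 1.77 ± 0.57 (adjusted p = 0.0234), Mx1 at 1.67 ± 0.47 (adjusted p = 0.0102), Ifi30 at 1.57 ± 0.40 (adjusted p = 0.00444), Zbp1 at 1.56 ± 0.55 (adjusted p = 0.0381) and Irf8 at 1.08 ± 0.39 (adjusted p = 0.0438). Across the alternatives run, Zbp1 lost this call in 15 and kept it in 11 and Irf8 lost it in 17 and kept it in 10, whereas Mx1 lost it in 1 and Ifi30 in 0. Oas1a was not followed singly through the alternatives. In wild-type muscle Oas1a stood at 1.57, 0.774 and 0.817 after saline and 0.538, 0.666, 0.631 and 0.379 after AAV. That lower AAV level was not called, and it enlarges the difference between genotypes. All 38 differences lay above 0, from 0.20 to 1.77 with a median of 0.68 beside -0.01 over all genes, while the share called was near that of the whole table. Leaving out 1 library gave 2 to 11 calls, 14 of the libraries moved the count by over 1.5 times, 11 came without homozygous saline replicate 4, and a fit of only these groups gave 13. Transgene levels also differed there, at 14.3 to 29.0 in homozygous, 56.9 to 114 in heterozygous and 158 to 324 in wild-type AAV libraries. The part of transgene level in these differences was not tested.

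At 7 dpi the heterozygous response differed from the wild-type response in 0 of 38 members, beside 20.2% of all genes called in either direction, with 1, Parp9, at an unadjusted p under 0.05 and 0 by edgeR and DESeq2. The homozygous response differed from the heterozygous one in 0 members, beside 3.24% of all genes, with 7 at an unadjusted p under 0.05, all larger in homozygous muscle, and 0 by edgeR and DESeq2. Fits of only the groups compared called 3 members for heterozygous minus wild-type and 1 for homozygous minus heterozygous, and the former count was 1 without wild-type AAV replicate 1. For Isg15 the homozygous minus heterozygous difference was 0.70 (95% interval -0.31 to 1.72).

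At 21 dpi the homozygous and wild-type responses differed in 0 of 38 members, beside 5.62% of all genes, and edgeR and DESeq2 also called 0. The median difference was 0.23 and single differences ran from -0.24 to 1.04. At an unadjusted p under 0.05 there were 3, Irf8 at 0.94 (95% interval 0.17 to 1.72), Adar at 0.73 (95% interval 0.10 to 1.36) and Ifitm3 at 0.61 (95% interval 0.01 to 1.21). For Zbp1 the difference was 1.04 (95% interval -0.04 to 2.13) and for Mx1 0.81 (95% interval -0.12 to 1.75), intervals that allow a homozygous excess as well as none. Without homozygous AAV replicate 4, the library lowest in all 39 genes, 6 members were called, and without wild-type AAV replicate 4 there was 1. Transgene levels overlapped between genotypes on this day, at 111 to 1267 in wild-type and 127 to 1103 in homozygous libraries.

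**Figure D5:**
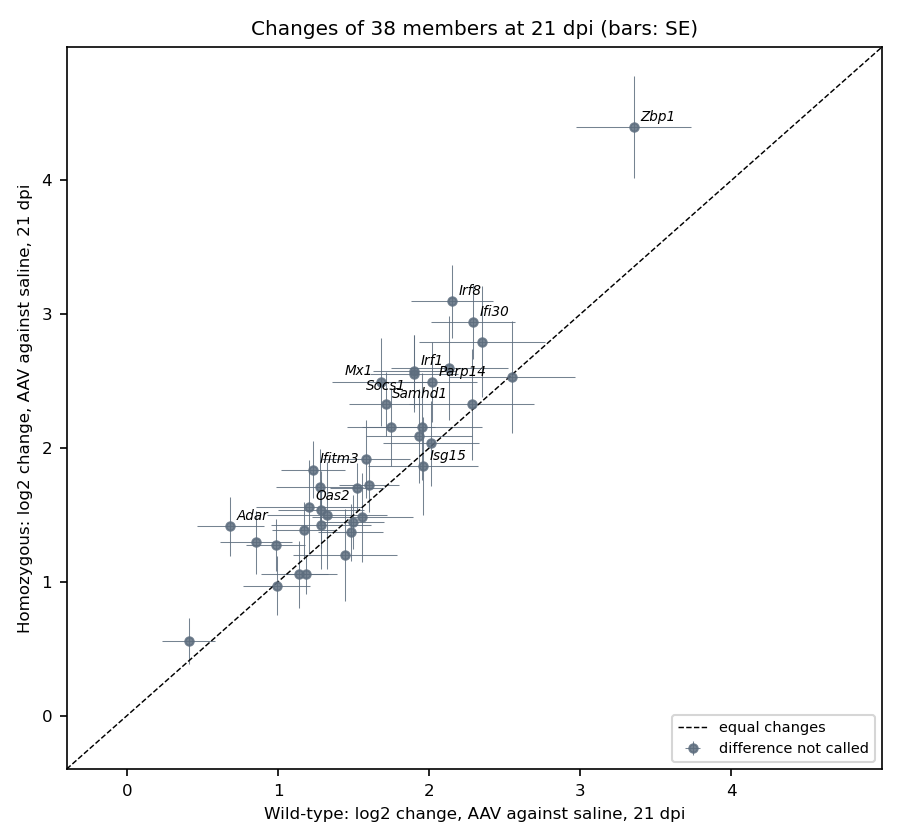
Log2 change, AAV against saline, of the 38 genes at 21 dpi in wild-type (x axis) and homozygous muscle (y axis), with SE bars; the dashed line marks equal changes. Most genes lie near or above the line, Zbp1 stands apart at 3.35 and 4.40, and no difference between genotypes was called.

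Other genes of the pathway were taken from lists of ligands, receptors and upstream sensors. Of 21 interferon ligand symbols, 1 had a row, Ifng, which encodes interferon gamma, and the others were not analysed here. Ifng was under the filter and not tested. It had 5 to 51 reads in wild-type AAV libraries and 13 to 99 reads in homozygous AAV libraries at 21 dpi, and 0 to 5 reads in every library of the other 12 groups. Among 8 receptor and kinase genes, 5 were higher and 2 lower at 21 dpi in each genotype. Of all genes, 29.7% and 29.6% were higher and lower in homozygous muscle, and 19.7% and 21.3% in wild-type muscle. Ifnar2 and Ifnar1, the chains of the type I receptor, rose in homozygous muscle by 1.61 ± 0.21 and 0.73 ± 0.12. The kinase gene Tyk2 rose by 0.90 ± 0.11. Ifngr2, a chain of the interferon gamma receptor, and the kinase gene Jak2 stood at -0.85 ± 0.09 and -0.71 ± 0.12, both called lower.

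Of 14 upstream sensor and adaptor genes, 12 rose and 1 fell in homozygous muscle at 21 dpi, 10 rose and 1 fell at 7 dpi, and 8 rose and 1 fell at 3 dpi. Of all genes 29.7%, 20.6% and 17.4% rose there and 29.6%, 22.5% and 17.2% fell. In wild-type muscle at 21 dpi 10 of the 14 rose and 0 fell, beside 19.7% and 21.3% of all genes. In heterozygous muscle at 7 dpi 5 rose and 1 fell, beside 19.6% and 20.8%. The one that fell on each day in homozygous muscle was Mavs, the mitochondrial adaptor of RIG-I, at -0.34 ± 0.09 at 21 dpi, -0.46 ± 0.08 at 7 dpi and -0.50 ± 0.09 at 3 dpi. Unc93b1, which carries nucleic acid receptors to endosomes, rose by 3.09 ± 0.32 at 21 dpi in homozygous muscle, and the endosomal receptor gene Tlr9 by 2.44 ± 0.29.

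Cell type markers changed in the groups in which members rose. Of all genes, 17.4%, 20.6% and 29.7% were called higher in homozygous muscle at 3, 7 and 21 dpi. The shares were 19.6% in heterozygous muscle at 7 dpi and 19.7% in wild-type muscle at 21 dpi. At 21 dpi 29.6% of all genes in homozygous and 21.3% in wild-type muscle were called lower. Of 12 macrophage markers, 11 rose in homozygous muscle at 3, 7 and 21 dpi, in heterozygous muscle at 7 dpi and in wild-type muscle at 21 dpi. Their summed level was 344 to 900.0 in homozygous AAV muscle at 3 dpi and 76.5 to 173 after saline. In wild-type muscle at 3 dpi, where 0 members were called, it was 127 to 291 after AAV and 92.9 to 95.2 after saline, without overlap, and 0 of the 12 markers were called. At 7 dpi it was 296 to 476 in homozygous and 232 to 409 in heterozygous AAV muscle, against 66.2 to 115 in both saline groups. At 21 dpi it was 282 to 2375 in homozygous and 301 to 914 in wild-type AAV muscle, against 42.8 to 102 after saline. In homozygous muscle the ratio of AAV to saline means of this sum was 5.35 at 3 dpi and 4.27 at 7 dpi, while that of the members was 1.54 and 1.75. Homozygous AAV replicate 4 at 21 dpi, lowest in the members, was also lowest in this sum, and replicate 1 was highest in both. Of 11 T and natural killer cell markers 8 were tested, of which 8 rose at 21 dpi in both genotypes, 5 in homozygous muscle at 7 dpi, and 0 in homozygous muscle at 3 dpi or heterozygous muscle at 7 dpi. Their summed level was 43.9 to 153 in homozygous and 16.2 to 88.5 in wild-type AAV muscle at 21 dpi, 3.68 to 15.4 in homozygous AAV muscle at 7 dpi, and at most 2.60 in the saline groups at 21 dpi. Of 8 B and plasma cell markers 3 were tested, and all 3 rose at 21 dpi in both genotypes. Of plasmacytoid dendritic cell markers, cells known for abundant interferon production, 5 of 6 had a row, and Tcf4 alone was tested and was not called in any comparison of AAV with saline. The others with a row were under the filter, so these markers cannot tell whether such cells changed. Of 6 fibroblast markers, 5 rose at 21 dpi in both genotypes. Of 7 endothelial markers, 6 fell at 21 dpi in both genotypes, as did 6 of 8 muscle fibre markers. The endothelial sum was 121 to 225 in homozygous AAV muscle at 21 dpi and 293 to 361 after saline. Of 6 neutrophil markers 1 was tested, Csf3r, which rose there by 2.32 ± 0.38 (adjusted p = 1.16e-06). The part of these cell types in the interferon response was not tested.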

How the data were processed

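Bulk RNA of 56 tibialis anterior samples was sequenced. The authors deposited 1 table of normalised counts, a signal of reads plus 0.5 divided by effective library size and scaled like CPM. Per the submitters' processing notes, FastQC, Bowtie, RSEM and limma were used with GRCm38 (mm10). The order of steps, the annotation and the strand setting are not given in the sources used here. With RSEM, reads that match several similar genes are shared out by estimation.

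Whole reads were recovered from the value steps (100.0% of values within 0.02 of a whole read), which gave the depths and the input of the count tools. All 56 value columns matched a sample label. The filter on low values kept genes averaging 1 CPM or more over all 56 libraries, AAV included (13017 of 14870, 1853 left out). Oas3, Mx1, Zbp1, Socs1, Oas1a and Dhx58 had saline medians of 0.138 to 0.917 normalised counts. They passed through AAV libraries in which they were higher, so their place among the tested genes was not independent of their rise. Main tests used limma 3.58.1 (R 4.3.3) with a mean-variance trend on log2(value + 1), 14 group means, 1 spread over all groups and Benjamini-Hochberg adjustment over all tested genes in each of 19 comparisons. Differences between genotypes and days were contrasts of responses. The procedure was tested on simulated data. Alternatives were edgeR 4.0.16 and DESeq2 1.42.0 on recovered reads, other pseudocounts, filters and scalings, a fit of only the groups compared, a replicate block and each replicate left out. One more, leaving out 2 libraries at 7 dpi, was chosen after seeing the data.

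The members and lists were chosen with earlier results of these data known. Values in every sample were given for Isg15, Mx1 and, in each of 6 role classes, the 2 members of smallest and the 1 of largest p in homozygous muscle at 21 dpi, and values were added for other members where a result turned on them. Coordinates are GENCODE gene spans on GRCm38 (14861 identifiers matched). Same-numbered AAV and saline samples had deviations correlated at -0.241 to 0.311 over 26 pairs. All 4 pairs were over 0.1 in heterozygous muscle at 7 dpi and homozygous muscle at 21 dpi (0.128 to 0.233). The numbers may pair samples there, but this rests on the data alone and other shared factors were not tested. The main fit treated samples as unpaired in every group, and the replicate block was fitted over all groups. Results for some items are not reported here.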

Additional observations from a re-analysis of the deposited data

Results flagged for a closer look

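Single libraries that lay far from the rest of their group were looked for by Dixon's criterion in 240 groups of 4 or 5 values, where chance gives about 1 in 20, and 15 were found. Homozygous AAV replicate 2 at 3 dpi was high for Dhx58 (4.87), Ddx58 (15.7) and Stat2 (22.9), and replicate 4 of that group was low for Ifi30 (10.01). Homozygous saline replicate 4 at 7 dpi was high for Samhd1 (53.9) and Parp14 (29.45). In homozygous AAV muscle at 7 dpi replicate 1 was low for Irf9 (11.2) and replicate 2, the shallowest library, was high for Ifi44 (11.5). In homozygous AAV muscle at 21 dpi replicate 1 was high for Ddx58 (28.96), and replicate 4 was low for Ifitm3 (38.99) and Parp9 (20.3). Homozygous saline replicate 1 at 21 dpi was high for Zbp1 (0.311). Wild-type AAV replicate 1 at 7 dpi was high for Usp18 (2.83). In heterozygous muscle at 7 dpi AAV replicate 4 was high for Parp14 (18.1) and saline replicate 2 was low for Ifitm3 (17.2).

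Some responses differed between genotypes by the limma contrast. At 3 dpi the homozygous response was larger than the wild-type one for Ifi30 by 1.37 on the log2 scale. At 7 dpi it was larger for Oas1a by 1.77, Mx1 by 1.67, Ifi30 by 1.57, Zbp1 by 1.56 and Irf8 by 1.08. The calls for Zbp1 and Irf8 were lost in 15 and 17 of the alternatives run, with adjusted p up to 0.285 and 0.102 by limma or the count tools.

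Others differed between days. In wild-type muscle the response at 21 dpi exceeded that at 7 dpi among the sensors by 3.09 for Zbp1, 1.79 for Dhx58 and 1.07 for Ddx58, and among the factors by 2.19 for Irf8 and 1.18 for Irf9. Among the effectors and ISG15 genes the excess was 1.62 for Samhd1, 1.48 for Mx1, 1.03 for Ifitm3, 1.97 for Isg15, 1.95 for Parp14 and 1.71 for Parp9. It was 1.82 for Socs1, 1.36 for Usp18, 2.21 for Ifi30, 1.51 for Ifi44 and 1.05 for Ifi27. In homozygous muscle the excess was 2.58 for Zbp1, 1.24 for Dhx58, 2.06 for Irf8, 1.14 for Stat2, 1.01 for Irf9, 1.76 for Samhd1 and 0.93 for Ifitm3. It was 2.00 for Parp14, 1.20 for Parp9, 2.27 for Socs1, 1.28 for Usp18 and 1.29 for Ifi30. Each AAV response at 21 dpi is measured against saline muscle of its own day.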

How the results depend on the processing

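The counts of members called higher at 21 dpi were 37 to 38 of 38 with any 1 library left out, and 38 by edgeR and DESeq2 in both genotypes. Where a count moved by over 1.5 times the cause was not tested. Fits of only the groups compared gave 14 for heterozygous AAV against saline at 7 dpi, 13 for homozygous minus wild-type at 7 dpi, 3 for heterozygous minus wild-type, 1 for homozygous minus heterozygous, 8 for homozygous 21 minus 7 dpi, and 3 for homozygous against wild-type saline muscle at 21 dpi. DESeq2 gave 11 for heterozygous AAV against saline, 2 for homozygous minus wild-type at 3 dpi and 1 for homozygous against wild-type saline muscle at 7 dpi. edgeR gave 2 for homozygous minus wild-type at 3 dpi and 2 at 7 dpi. A pseudocount of 0.25 gave 2 for that comparison at 3 dpi, and at 7 dpi a pseudocount of 4 gave 2, a filter at 5 CPM 3 and quantile normalization 3.

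With 1 replicate left out, the counts ranged from 4 to 15 for homozygous AAV against saline at 3 dpi, 21 to 33 at 7 dpi, and 3 to 7 for heterozygous muscle. They ranged from 0 to 4, 2 to 11 and 0 to 6 for homozygous minus wild-type at 3, 7 and 21 dpi, and from 0 to 1 for heterozygous minus wild-type (1 without wild-type AAV replicate 1). They ranged from 18 to 35 for wild-type 21 minus 7 dpi, 9 to 25 for homozygous 21 minus 7 dpi and 0 to 1 for homozygous 7 minus 3 dpi (1 without homozygous AAV replicate 2 at 3 dpi). Without 2 libraries at 7 dpi (an alternative chosen after seeing the data), homozygous AAV against saline gave 31, homozygous minus wild-type 5 and homozygous 21 minus 7 dpi 12.

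With a replicate block the counts were 38 for wild-type at 21 dpi, 13, 26 and 38 for homozygous muscle at 3, 7 and 21 dpi, 6 for heterozygous muscle, 5 for homozygous minus wild-type at 7 dpi, 31 for wild-type and 15 for homozygous 21 minus 7 dpi, and no count moved by over 1.5 times. It is not known for any group whether same-numbered samples were paired. Quantile normalization moved the median of all genes by -0.12 in homozygous muscle at 21 dpi. Of 96 results for single named genes, 69 kept their call in every alternative run, 27 lost it in some and 0 reversed. Groups of 3 to 5 and low counts limit what could be called, among others for Oas3, Mx1, Zbp1 and Socs1, which had low levels in saline muscle.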

Other observations

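Wild-type AAV replicate 1 at 7 dpi was the highest of its group in 31 of the 39 interferon response genes, and its summed macrophage markers were 146, against 68.6 to 103 in the other 3. Homozygous saline replicate 4 at 7 dpi, the highest of its group in 31 of the 39 genes, had summed macrophage markers of 115, against 74.7 to 106 in the other 3.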
